A study of Mus musculus with 6 samples.

Results

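The NF-kB system was followed through 10 genes in mouse macrophages that carry a chimeric antigen receptor (CAR), a synthetic receptor that points a cell at a chosen surface target. The genes were chosen by name from a deposited table of 22063 genes: the 5 NF-kB subunits Nfkb1, Nfkb2, Rel, Rela and Relb, and 5 regulators, grouped here as inhibitors, the IkB proteins Nfkbia, Nfkbib, Nfkbie and Nfkbiz and the deubiquitinase A20, encoded by Tnfaip3. Nfkbiz, an atypical IkB protein, can also help to induce genes. All 10 had enough reads to be tested, with 95 to 2858 reads per sample. RNA sequencing covered 6 samples, 3 of CAR-Trem2-Ms and 3 of CAR-Ms, and the study compared the transcriptomes of these groups. All macrophages were cultured for 7 days in DMEM with M-CSF at 20 ng/mL and received a lentivirus for the receptor. CAR-Trem2-Ms carry the genotype label TERM2+, and their own treatment label adds an induction with 1 µM VD3 over 24 h and sorting by flow cytometry. CAR-Ms carry the genotype label WT. The protocol text shared by all samples also names VD3, so the labels do not settle whether CAR-Ms received it, and Trem2 status, sorting and possibly VD3 cannot be told apart. The tissue is labelled skin and the cell line macrophage, with no animal, donor or promoter named.

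NF-kB transcription factors are dimers of proteins that share a Rel homology domain. In resting cells IkB proteins hold the dimers in the cytoplasm, until the IKK kinase complex marks the IkB proteins for destruction and the freed dimers enter the nucleus. NF-kB then switches on the genes of several of its own inhibitors, among them Nfkbia and Tnfaip3, which closes a negative feedback loop. In macrophages this system is known for driving cytokine and chemokine genes after Toll-like receptor or TNF signals. The canonical branch uses mainly dimers of Rela, Rel and the p50 product of Nfkb1, and the noncanonical branch uses Relb with the p52 product of Nfkb2.

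In CAR-Trem2-Ms against CAR-Ms, 3 of the 5 subunit genes and 3 of the 5 inhibitor genes rose. Nfkbia and Tnfaip3, the classical feedback inhibitors, rose 2.42-fold and 2.30-fold, and Rel, which encodes the c-Rel subunit, fell to 0.401 of its level in CAR-Ms. Nfkb2 also fell, and Nfkbib and Relb rose. Of the 10 genes, 6 rose, 2 fell and 2 did not pass edgeR's quasi-likelihood test on read counts, at a Benjamini-Hochberg adjusted p under 0.05 over all tested genes. Over all 11402 tested genes 81.1% changed, 40.9% higher and 40.1% lower, so a count of 8 changed genes out of 10 lies near that background and says nothing particular to these genes. The groups did not overlap in 9 of the 10 genes, and in 81.8% of all tested genes. The median log2 fold change was 0.28 over the 10 genes, 0.24 over the subunits and 0.77 over the inhibitors, beside 0.03 over all tested genes.

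Samples of CAR-Trem2-Ms held 9804959 to 12558021 counts and those of CAR-Ms 14204468 to 15913100 counts. Trem2 read 182 to 196 CPM (counts scaled to library size with TMM factors, which align the bulk of genes between libraries) in CAR-Trem2-Ms and 74.1 to 78.7 CPM in CAR-Ms, in the direction of the label, although counts do not separate an introduced coding sequence from the endogenous gene. Transcripts of the mitochondrial genome took 13.38 to 13.8% of reads in CAR-Trem2-Ms and 4.6 to 4.7% in CAR-Ms. With these genes left out, 6 of the 10 genes rose and 2 fell, as with them, beside 4669 higher and 4573 lower among all genes in that fit. Of 12 macrophage markers 11 were tested, 9 of them higher and 2 lower. Their summed level was 4273 to 4321 CPM in CAR-Trem2-Ms and 3647 to 3679 CPM in CAR-Ms, and Mertk was near 0 in both groups. The 2 lower macrophage markers were Csf1r, at 862 CPM in CAR-Trem2-Ms and 1264 CPM in CAR-Ms, and Cd68, at 601 and 639 CPM. The largest rises in CPM were those of Lyz2 (1776 and 1315 CPM) and Cd14 (495 and 164 CPM in the same groups). The 10 neutrophil markers summed to 15.4 to 17.2 CPM in CAR-Trem2-Ms and 20.4 to 38.4 CPM in CAR-Ms, with 1 of 6 tested higher and 5 lower. The higher one, Csf3r, stood at 11.4 CPM in CAR-Trem2-Ms and 2.13 CPM in CAR-Ms, so the sum understates the fall of S100a8, S100a9, Ngp, Ltf and Camp. Ngp, for one, stood at 0.818 CPM in CAR-Trem2-Ms and 7.47 CPM in CAR-Ms. The 7 monocyte markers summed to 88.3 to 98.6 CPM in CAR-Trem2-Ms and 49.5 to 52.5 CPM in CAR-Ms, with 3 of 5 tested higher and 1 lower. Most of that difference was Spn, at 46.2 CPM in CAR-Trem2-Ms and 9.78 CPM in CAR-Ms. Nr4a1, the other large term, did not pass (37.1 and 33.8 CPM in the same groups). Chil3 was the lower one (0.303 and 1.68 CPM), and Ly6c2 and Plac8 had too few reads to be tested. Marker sums of dendritic cells, lymphocytes, fibroblasts, endothelium and mast cells lay between 0.0854 and 12.6 CPM in CAR-Trem2-Ms and between 0 and 12.7 CPM in CAR-Ms. The keratinocyte genes Krt5, Krt1, Krt10 and Trp63 had no read in any sample, which allows up to 3 counts, or 0.0867 CPM over the group in CAR-Trem2-Ms and 0.0672 CPM in CAR-Ms (counting error only). The part of other cells in the results was not tested. In such bulk samples fewer cells of a type and less RNA per cell cannot be told apart. The labels do not say whether replicates are separate cultures or animals, and p-values rest on the spread between the 3 samples of a group, part or all of which may be technical.

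The promoters of the genes that moved under every scaling tried are shown because NF-kB binds its own genes: Nfkbia and Tnfaip3, which rose, and Rel and Nfkb2, which fell. Each line gives the 250 bases before the 5′-most start that RefSeq lists on GRCm38.p6, read 5′ to 3′ on the gene's strand. Capitals mark matches to the NF-kB consensus of 10 bases on either strand, with overlapping matches merged. The windows lie at chr12:55492648-55492897 (minus strand) for Nfkbia, chr10:19015411-19015660 (minus strand) for Tnfaip3, chr11:23770970-23771219 (minus strand) for Rel and chr19:46304487-46304736 (plus strand) for Nfkb2. GENCODE M21, used for the gene coordinates, sets earlier starts for Tnfaip3 (19000910 to 19015657) and Nfkb2 (46304320 to 46312385). By that annotation the Nfkb2 window lies inside the gene and the Tnfaip3 window almost wholly so, and neither is upstream sequence.
Nfkbia: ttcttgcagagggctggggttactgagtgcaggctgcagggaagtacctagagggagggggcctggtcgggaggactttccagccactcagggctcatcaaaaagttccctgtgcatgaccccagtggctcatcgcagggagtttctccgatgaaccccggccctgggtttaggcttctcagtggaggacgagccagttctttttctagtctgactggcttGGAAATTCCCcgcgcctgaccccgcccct
Tnfaip3: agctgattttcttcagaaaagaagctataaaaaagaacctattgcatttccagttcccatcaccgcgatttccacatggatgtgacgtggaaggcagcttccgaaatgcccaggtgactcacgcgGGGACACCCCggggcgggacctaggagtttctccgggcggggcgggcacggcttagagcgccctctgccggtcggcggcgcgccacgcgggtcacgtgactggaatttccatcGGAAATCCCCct
Rel: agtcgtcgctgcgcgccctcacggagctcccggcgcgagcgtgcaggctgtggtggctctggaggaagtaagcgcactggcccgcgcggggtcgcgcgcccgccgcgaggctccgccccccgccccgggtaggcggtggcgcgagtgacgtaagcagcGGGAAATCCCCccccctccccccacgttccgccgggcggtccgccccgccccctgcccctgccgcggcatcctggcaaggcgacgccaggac
Nfkb2: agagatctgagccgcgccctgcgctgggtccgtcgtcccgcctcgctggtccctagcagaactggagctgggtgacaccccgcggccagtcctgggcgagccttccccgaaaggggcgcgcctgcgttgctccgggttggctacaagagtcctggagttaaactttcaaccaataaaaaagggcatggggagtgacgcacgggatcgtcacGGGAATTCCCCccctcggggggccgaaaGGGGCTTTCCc
The window of Nfkbia held 1 match, at 29 bases before the start, that of Rel 1 place and those of Tnfaip3 and Nfkb2 2 places each. RefSeq windows were found for 7 of the 10 genes (all but Nfkb1, Relb and Nfkbiz). At the 5′-most start 5 of these 7 held a match, Nfkbie being the fifth, and Rela and Nfkbib held none. Among all 27025 genes with a window 7.03% held one, and among 9054 tested genes 8.57%. The 776 tested genes with a match had a median log2 fold change of 0.01, with 41.1% higher and 40.3% lower, and the other tested genes had one of 0.03, 41.1% being higher and 40.3% lower. A match is a string of letters in the window and does not show that the factor was bound.

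Rel encodes c-Rel, a subunit with a strong activation domain that is known for driving cytokine genes in myeloid and lymphoid cells (ENSMUSG00000020275, chromosome 11, 23736847 to 23770970, minus strand, GRCm38). It read 69.1, 72.9 and 70.0 CPM in CAR-Trem2-Ms replicates 1, 2 and 3, against 181, 172 and 175 CPM in CAR-Ms. The 3 CAR-Trem2-Ms samples lay together far below all CAR-Ms samples. Rel averaged 70.7 ± 1.97 CPM in CAR-Trem2-Ms and 176 ± 4.69 CPM in CAR-Ms (SD, n = 3 each), for a log2 fold change of -1.32 ± 0.05 (SE; edgeR, Benjamini-Hochberg adjusted p = 1.2e-20). Of all tested genes, 8.09% had a lower fold change. Transcript abundance per length (TPM) showed the same direction, 9.21 ± 0.304 TPM in CAR-Trem2-Ms and 36.8 ± 0.92 TPM in CAR-Ms.

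Nfkb2 encodes the precursor of p52, the DNA-binding partner of Relb (ENSMUSG00000025225, chromosome 19, 46304320 to 46312385, plus strand). It read 71.6, 75.4 and 71.3 CPM in CAR-Trem2-Ms and 104, 114 and 102 CPM in CAR-Ms. The groups did not overlap, and CAR-Ms replicate 2 was the highest sample. Nfkb2 fell by 0.55 ± 0.06 on the log2 scale (SE; edgeR adjusted p = 4.5e-10). Its exons share 299 bases with those of Psd and 531 bases with those of AC114539.1, both on the other strand, and no source says that counting used strand. Psd had at most 177 reads in a sample.

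Relb moved the other way from its partner. It encodes the subunit that leads the noncanonical branch (ENSMUSG00000002983, chromosome 7, 19606217 to 19629438, minus strand). Relb read 30.8, 39.6 and 37.1 CPM in CAR-Trem2-Ms and 19.4, 23.8 and 19.0 CPM in CAR-Ms. The groups did not overlap, although the spread was wide, with a coefficient of variation of 12.6% in CAR-Trem2-Ms and 12.9% in CAR-Ms. Relb rose 1.72-fold (log2 0.79 ± 0.11 SE; edgeR adjusted p = 2.1e-07). On log2(TPM + 1) its log2 fold change was 0.06 and did not pass (limma adjusted p = 0.66).

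The canonical subunits Nfkb1 and Rela showed small differences. Nfkb1 encodes the precursor of p50, which lacks an activation domain (ENSMUSG00000028163, chromosome 3, 135584655 to 135691547, minus strand). It read 197, 190.0 and 180.1 CPM in CAR-Trem2-Ms and 151, 149 and 153 CPM in CAR-Ms, a rise of 0.32 ± 0.04 (log2, SE; edgeR adjusted p = 2.1e-08). Rela encodes p65, the main activating subunit of the canonical branch (ENSMUSG00000024927, chromosome 19, 5637483 to 5648130, plus strand). It read 75.6, 75.7 and 74.5 CPM in CAR-Trem2-Ms and 62.6, 63.8 and 64.6 CPM in CAR-Ms, a rise of 0.24 ± 0.06 (log2, SE; edgeR adjusted p = 3.6e-04). Rela had the narrowest spread of the 10 genes in CAR-Trem2-Ms, with a coefficient of variation of 0.845%. The direction of both genes depended on scaling, at -0.24 for Nfkb1 and -0.40 for Rela on log2(TPM + 1).

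**Figure D1:**
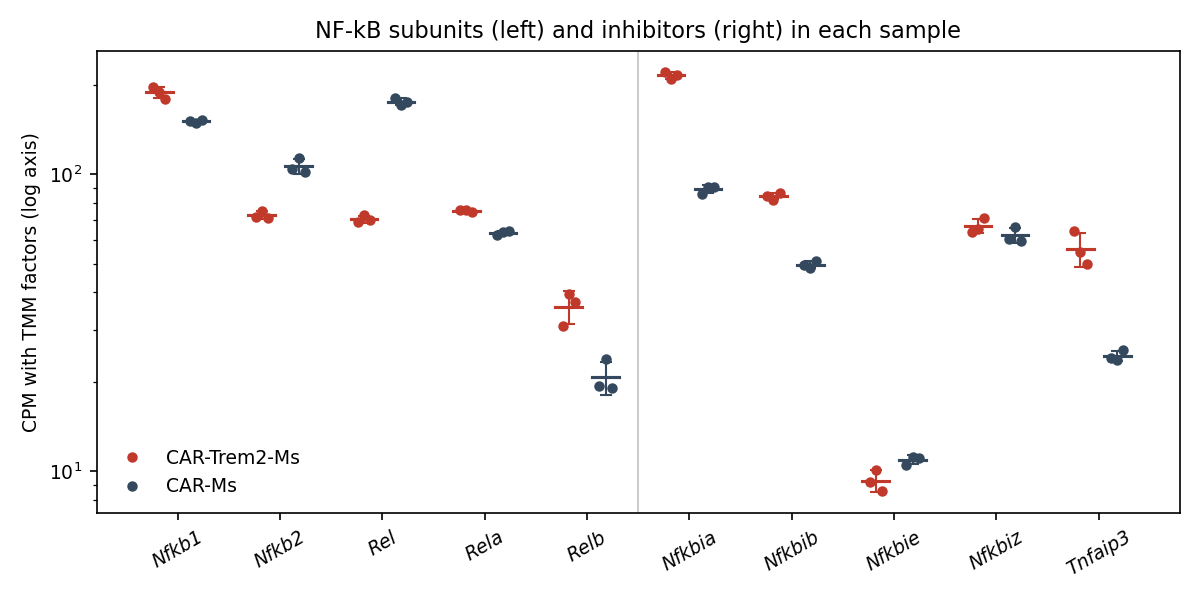
Levels of the 5 NF-kB subunits and 5 inhibitors in CPM with TMM factors, on a log axis. Points are samples, red for CAR-Trem2-Ms and dark blue for CAR-Ms, horizontal bars are means and whiskers SD (n = 3). Rel lies at 69.1 to 72.9 CPM in CAR-Trem2-Ms, under 172 to 181 CPM in CAR-Ms, and Nfkbia at 209 to 221 CPM in CAR-Trem2-Ms, above 86.2 to 90.9 CPM in CAR-Ms; the groups of Nfkbiz overlap.

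Among the inhibitors, Nfkbia encodes IkB alpha, the fast-turnover inhibitor that NF-kB resynthesises after each pulse of activity (ENSMUSG00000021025, chromosome 12, 55489410 to 55492647, minus strand). It read 221, 209 and 217 CPM in CAR-Trem2-Ms, against 86.2, 90.8 and 90.9 CPM in CAR-Ms. Every CAR-Trem2-Ms sample was more than 100 CPM above the highest CAR-Ms sample. Nfkbia averaged 216 ± 5.68 CPM in CAR-Trem2-Ms and 89.3 ± 2.67 CPM in CAR-Ms (SD, n = 3 each) and rose by 1.27 ± 0.04 (log2, SE; edgeR adjusted p = 2.4e-21). Tnfaip3 encodes A20, which edits ubiquitin chains on upstream adaptors and so ends the signal (ENSMUSG00000019850, chromosome 10, 19000910 to 19015657, minus strand). It read 64.4, 54.6 and 49.8 CPM in CAR-Trem2-Ms and 24.1, 23.7 and 25.6 CPM in CAR-Ms. The CAR-Trem2-Ms samples were uneven, with replicate 1 the highest, and all lay above CAR-Ms. Tnfaip3 rose by 1.20 ± 0.09 (log2, SE; edgeR adjusted p = 7.8e-13), and by 1.09 without CAR-Trem2-Ms replicate 1.

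Nfkbib encodes IkB beta, an inhibitor that turns over more slowly than IkB alpha (ENSMUSG00000030595, chromosome 7, 28758251 to 28767512, minus strand). It read 84.8, 82.2 and 86.6 CPM in CAR-Trem2-Ms and 49.6, 48.3 and 51.0 CPM in CAR-Ms. The groups were tight and did not overlap, and Nfkbib rose 1.70-fold (log2 0.77 ± 0.06 SE; edgeR adjusted p = 1.7e-12). On log2(TPM + 1) its log2 fold change was 0.05 and did not pass (limma adjusted p = 0.28). Its exons share 42 bases with Sirt2 and 314 with Ccer2, both on the other strand. Sirt2 had up to 1173 reads in a sample and Ccer2 up to 4, beside 736 to 1014 for Nfkbib.

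Nfkbie and Nfkbiz did not pass the test. Nfkbie encodes IkB epsilon, an inhibitor of dimers that hold Rela or c-Rel (ENSMUSG00000023947, chromosome 17, 45555703 to 45563169, plus strand). It was the lowest of the 10 genes, at 9.20, 10.1 and 8.54 CPM in CAR-Trem2-Ms and 10.5, 11.2 and 11.1 CPM in CAR-Ms (log2 fold change -0.24 ± 0.15 SE; edgeR adjusted p = 0.15). Its groups did not overlap, by a gap smaller than the spread in CAR-Trem2-Ms. Nfkbiz encodes the nuclear protein IkB zeta, an atypical family member needed for the induction of a set of secondary response genes (ENSMUSG00000035356, chromosome 16, 55811375 to 55838899, minus strand). It read 64.2, 65.7 and 71.1 CPM in CAR-Trem2-Ms and 60.7, 66.5 and 59.6 CPM in CAR-Ms, and the groups overlapped (log2 fold change 0.11 ± 0.06 SE; edgeR adjusted p = 0.13).

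Levels of different genes were compared in the deposited TPM, which the authors scaled per length. In CAR-Trem2-Ms the order of mean levels was Nfkbia (159.5 TPM), Nfkbib (83.8), Nfkb1 (68.7), Rela (30.7), Nfkb2 (24.5), Nfkbiz (18.7), Relb (18.4), Tnfaip3 (13.5), Rel (9.21) and Nfkbie (4.09). Nfkbiz and Relb exchanged places between CAR-Trem2-Ms samples, as did Tnfaip3 and Relb. In CAR-Ms the order was Nfkbia (107 TPM), Nfkb1 (81.0), Nfkbib (80.8), Nfkb2 (56.0), Rela (40.9), Rel (36.8), Nfkbiz (28.0), Relb (17.7), Tnfaip3 (8.95) and Nfkbie (7.76), with Nfkb1 and Nfkbib not separated beyond their spread. Rel ranked 9 in every CAR-Trem2-Ms sample and 6 in every CAR-Ms sample. Of 45 pairs of the 10 genes, 4 stood in one order in all CAR-Trem2-Ms samples and in the other in all CAR-Ms samples. In 3 of them Rel dropped below another gene, and the last set Rela above Nfkb2. The Relb to Rel ratio of TPM was 2.0 ± 0.124 in CAR-Trem2-Ms and 0.483 ± 0.0845 in CAR-Ms, and the Rela to Nfkb2 ratio 1.25 ± 0.037 and 0.732 ± 0.048 in the same groups (SD, n = 3 each).

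Ratios within a sample do not depend on a single scaling factor per library, but a correction that differs between genes can move them. Rel made up 6.08 ± 0.204% of the summed TPM of the 5 subunits in CAR-Trem2-Ms and 15.8 ± 0.557% in CAR-Ms (SD, n = 3 each). The share of Nfkb2 was 16.2 ± 0.367% in CAR-Trem2-Ms and 24.1 ± 1.10% in CAR-Ms. Nfkb1 took 45.3 ± 1.56% in CAR-Trem2-Ms and 34.8 ± 1.35% in CAR-Ms. Rela took 20.3 ± 0.136% in CAR-Trem2-Ms and 17.6 ± 0.488% in CAR-Ms, and Relb 12.2 ± 1.14% and 7.62 ± 1.05% in the same groups. Within the inhibitors, Nfkbia took 57.0 ± 0.15% in CAR-Trem2-Ms and 46.0 ± 0.606% in CAR-Ms. Nfkbiz took 6.70 ± 0.411% in CAR-Trem2-Ms and 12.0 ± 0.699% in CAR-Ms.

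**Figure D2:**
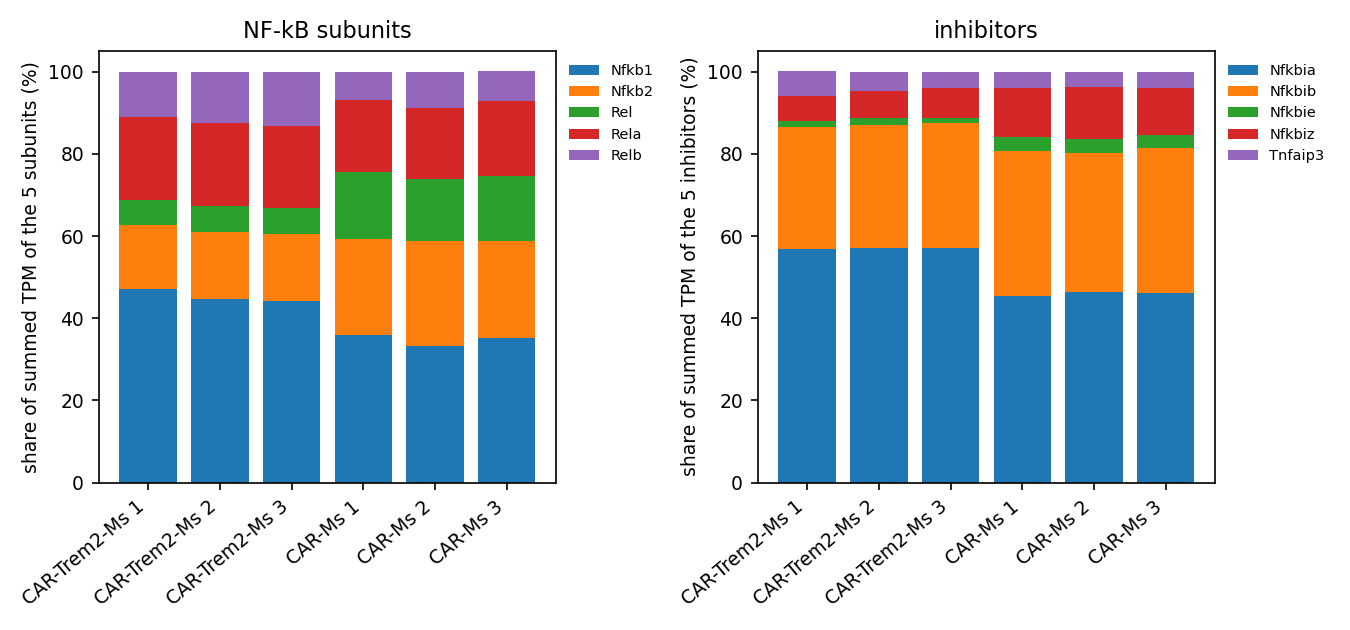
Shares of the summed TPM of the 5 NF-kB subunits (left panel) and of the 5 inhibitors (right panel), in percent, 1 bar per sample with CAR-Trem2-Ms left of CAR-Ms. Rel fills 5.86 to 6.27% of the subunit bars of CAR-Trem2-Ms and 15.2 to 16.3% of those of CAR-Ms, and Nfkbia fills 56.9 to 57.1% of the inhibitor bars of CAR-Trem2-Ms and 45.3 to 46.5% of those of CAR-Ms.

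The summed TPM of the inhibitors over that of the subunits was 1.87, 1.75 and 1.93 in CAR-Trem2-Ms and 0.977, 0.990 and 1.03 in CAR-Ms. In CAR-Ms the sums were about equal, and in every CAR-Trem2-Ms sample inhibitor transcripts exceeded subunit transcripts. That excess rested on Nfkbia, which held 56.9 to 57.1% of the inhibitor sum in CAR-Trem2-Ms. The other inhibitors summed to less than the subunits in every sample of both groups. The ratio averaged 1.85 ± 0.0947 in CAR-Trem2-Ms and 1.00 ± 0.0287 in CAR-Ms (SD, n = 3 each), a log2 difference of 0.89 with an exact 2-sided permutation p = 0.10, the smallest that 3 against 3 samples allow. Without Nfkbia, the gene of the highest level, the log2 difference was 0.56, and without Nfkbiz, an alternative chosen after seeing the data, it was 0.97. The TPM ratio of Nfkbia to Rel, the genes of the largest rise and the largest fall by counts with TMM factors, was 18.1, 16.3 and 17.6 in CAR-Trem2-Ms and 2.72, 3.02 and 2.99 in CAR-Ms, given as a description since these genes were picked for their change. The canonical subunits Nfkb1, Rel and Rela over the noncanonical Nfkb2 and Relb gave 2.76, 2.45 and 2.41 in CAR-Trem2-Ms and 2.29, 1.93 and 2.27 in CAR-Ms. That log2 difference of 0.23 (exact 2-sided permutation p = 0.10) turned to -0.32 when log2 values were averaged in place of summing TPM and to -0.18 without Nfkb1, and it was 0.00 with summed counts, so no direction is given for it.

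The scaling set the direction of the smaller changes. With TMM factors 4668 of all tested genes were higher and 4577 lower, against 5714 and 3606 with upper quartile factors. Upper quartile factors moved the median log2 fold change of all genes to 0.26, and 7 of the 10 genes rose and 2 fell (50.1% of all tested genes higher, 31.6% lower). Total-count scaling gave a median of -0.10, with 5 of the 10 higher and 3 lower (36.4% and 44.7% of all tested genes). On log2(TPM + 1), tested over 10824 genes the median stood at -0.63, and 1890 genes were higher and 6946 lower, or 17.5% and 64.2%. There 2 of the 10 were higher, Nfkbia and Tnfaip3, 6 lower and 2 not past the test. Relative to the median of all genes on that scale, Nfkbia stood at 1.20, Tnfaip3 at 1.16, Relb at 0.69, Nfkbib at 0.68, Nfkb1 at 0.40, Rela at 0.23, Nfkbiz at 0.08, Nfkbie at -0.16, Nfkb2 at -0.53 and Rel at -1.26. With TMM factors the same order ran from 1.24 for Nfkbia to -1.35 for Rel.

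GC content and transcript length bore on the sizes. The longest transcripts have 42.5% GC for Rel, 44.9% for Nfkb1 and 47.1% for Tnfaip3, and 59.4% for both Nfkb2 and Rela. After a correction for GC content and length within each sample, Rel stood at -0.74 (log2 fold change), Nfkb2 at -1.06, Nfkbia at 0.82 and Tnfaip3 at 1.65, all past the test. The gap between the log2 fold changes of Nfkbia and Rel was 2.59 with TMM factors and 1.56 after this correction. The TPM shares and ratios above were not recomputed with it. Rela turned to -0.35 (edgeR adjusted p = 2.8e-06), and Nfkb1 stood at 0.55. All 10 genes then passed, 6 of them higher and 4 lower, beside 36.3% and 43.4% of all tested genes. Nfkbia, Tnfaip3, Rel and Nfkb2 kept their direction and passed the test under every scaling and tool tried.

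**Figure D3:**
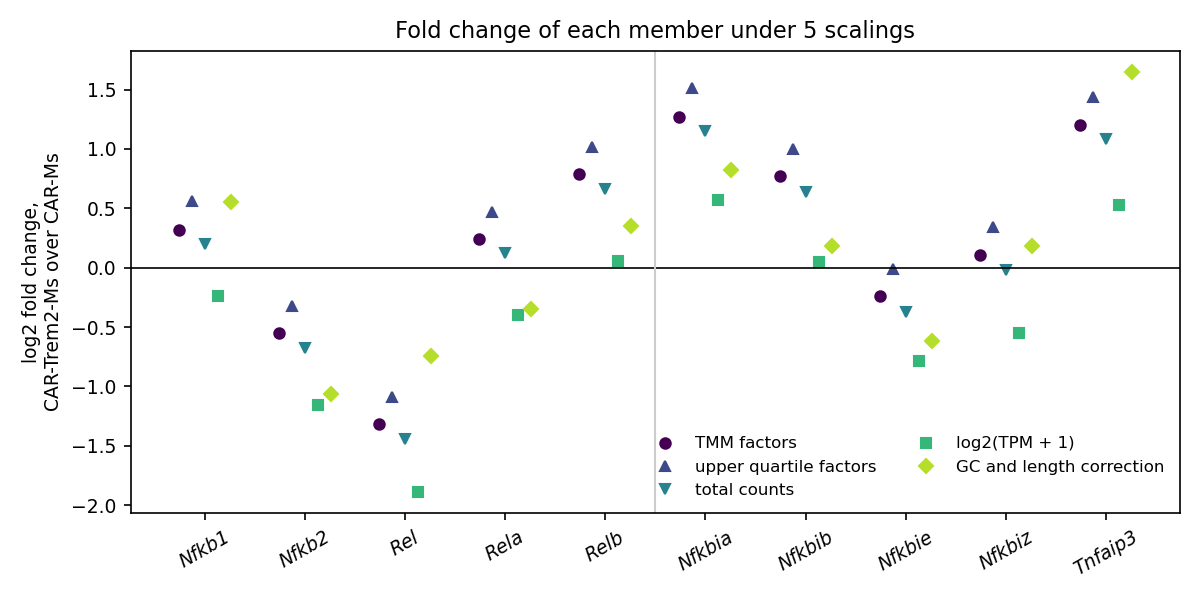
Log2 fold change of each gene, CAR-Trem2-Ms over CAR-Ms, under 5 scalings, shown as marker shapes. Nfkbia and Tnfaip3 lie above 0 and Rel and Nfkb2 below 0 under all 5, while Nfkb1, Rela and Nfkbiz lie on either side of 0.

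Upstream of the subunits, genes of the kinase step moved in both directions. Of 18 tested genes of the IKK complex and its upstream kinases, 9 rose, 8 fell and 1 did not pass (median log2 fold change 0.21, against 0.03 over all tested genes). These shares lie near the 40.9% higher and 40.1% lower of all tested genes, and on log2(TPM + 1) the median was -0.50, against -0.63 over all genes. Ikbke, an inducible IKK-related kinase, rose 7.09-fold to 55.7 ± 3.41 CPM in CAR-Trem2-Ms, against 7.86 ± 0.218 CPM in CAR-Ms (SD, n = 3 each). Tab1, an activating partner of the kinase TAK1, rose 4.42-fold (log2 2.14, and 1.34 on log2(TPM + 1)). Tab3, a ubiquitin-binding partner of the same kinase, fell by 1.72, and Ripk1, the kinase of the TNF receptor complex, fell by 1.44 on the log2 scale, and Ripk1 stood at -0.92 after the GC content and length correction. The core genes Chuk, Ikbkb and Ikbkg, which encode IKK alpha, beta and gamma, had log2 fold changes of -0.50, 0.37 and 0.40. They were -1.15, -0.20 and -0.46 on log2(TPM + 1), so the direction of Ikbkb and Ikbkg depended on scaling; the 3 genes were named after their values were seen.

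Among adaptors, 19 of 20 listed genes were in the table under their symbol, and all 19 were tested. In this list 8 rose, 7 fell and 4 missed the threshold (median 0.21, and -0.42 on log2(TPM + 1)), beside 40.9% higher and 40.1% lower among all tested genes. Card9, the adaptor that links Syk-coupled receptors to NF-kB, rose 5.56-fold to 156 ± 5.40 CPM in CAR-Trem2-Ms, against 28.1 ± 0.812 CPM in CAR-Ms. Traf1 rose 3.03-fold, and Rnf31, the catalytic subunit of the linear ubiquitin ligase, 2.63-fold, with log2 fold changes of 1.60 and 1.39, and of 0.92 and 0.70 on log2(TPM + 1). Traf6, the ubiquitin ligase of Toll-like receptor and interleukin 1 receptor signalling, fell by 1.47 on the log2 scale. Of 17 tested receptor genes out of 20, 9 rose, 1 fell and 7 did not pass (median 0.45, and 0.05 on log2(TPM + 1)), beside 40.9% higher and 40.1% lower among all tested genes. Cd14, the co-receptor for lipopolysaccharide, rose 3.02-fold to 495 ± 18 CPM in CAR-Trem2-Ms, against 164 ± 6.36 CPM in CAR-Ms. The Toll-like receptor genes Tlr6 and Tlr13 rose 2.85-fold and 2.75-fold, and Il1rap, the accessory chain of the interleukin 1 receptor, fell by 1.21. The log2 fold changes of Cd14, Tlr6 and Tlr13 were 1.59, 1.51 and 1.46, and 0.89, 0.74 and 0.60 on log2(TPM + 1).

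Among 20 other restraints on NF-kB, all tested, 13 rose, 6 fell and 1, Tank, missed the threshold (median 0.57), beside 40.9% higher and 40.1% lower among all tested genes. Nlrc3, a negative regulator of Toll-like receptor signalling, rose 3.53-fold to 31.4 ± 2.11 CPM in CAR-Trem2-Ms, against 8.90 ± 0.242 CPM in CAR-Ms. Bcl3, a nuclear IkB protein that binds p50 and p52 dimers, rose 3.06-fold, and Pdlim2, a ubiquitin ligase for nuclear p65, 2.44-fold. Bcl3, at a log2 fold change of 1.61, stood at 0.88 after the GC content and length correction, and Pdlim2, at 1.29, stood at 0.80. Nlrc3 stood at 0.99, Bcl3 at 0.90 and Pdlim2 at 0.55 on log2(TPM + 1). Otud7b, a deubiquitinase, fell by 1.42 on the log2 scale, to 65.8 ± 2.99 CPM in CAR-Trem2-Ms, against 176 ± 2.31 CPM in CAR-Ms. Otud7b stood at -2.16 on log2(TPM + 1), where the median of this list was -0.11, against -0.63 for all genes.

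Of 36 known NF-kB target genes 30 were tested: 22 rose, 16 of them at least 2-fold, while 6 fell, 1 of them at least 2-fold, and 2 missed the threshold. Among all tested genes 40.9% rose and 40.1% fell, 18.7% and 14.3% by at least 2-fold. Traf1 and Birc3 stand in this list and among the adaptors. The median log2 fold change was 1.13, and 0.38 on log2(TPM + 1). The chemokine gene Ccl5 stood at 72.3 ± 7.45 CPM in CAR-Trem2-Ms and 0.711 ± 0.213 CPM in CAR-Ms, and Ccl4 at 225 ± 5.19 and 5.64 ± 0.884 CPM in the same groups. Cxcl2, a neutrophil attractant, rose 11-fold. Saa3, of a family of related acute phase genes whose reads may be shared, rose 15.4-fold from few reads. It had 70 to 87 reads per sample in CAR-Trem2-Ms and 1 to 10 in CAR-Ms. Members that did not rise, named after their values were seen, include Cd83 and Cflar, which fell by 1.22 and 0.97, and Birc3, at 78.1 ± 1.40 CPM in CAR-Trem2-Ms and 81.0 ± 1.73 CPM in CAR-Ms. Il1b did not pass, at 2 to 7 reads per sample in CAR-Trem2-Ms and 11 to 15 in CAR-Ms. The targets with too few reads to be tested were Il6, Il12b, Cxcl1, Vcam1, Csf2 and Ccl22. Il6 had 0 to 11 reads per sample in CAR-Trem2-Ms and 0 to 1 in CAR-Ms, and Il12b had no read in any sample.

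**Figure D4:**
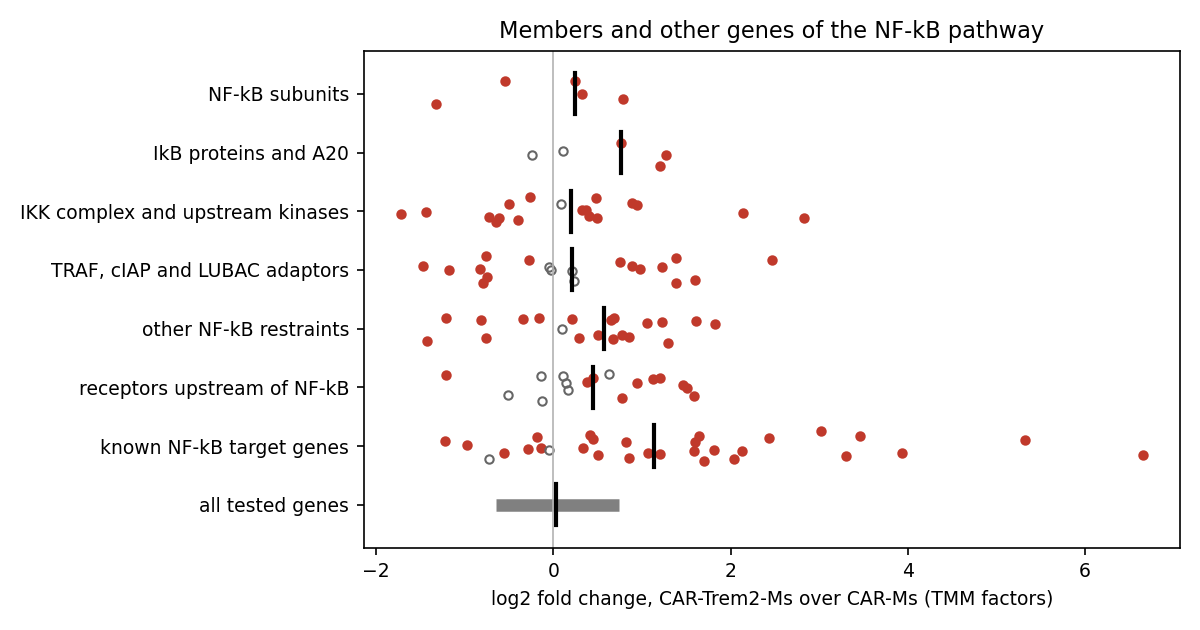
Log2 fold change, CAR-Trem2-Ms over CAR-Ms with TMM factors, of each tested gene in 7 lists. Filled points passed the test, open points did not, black bars are medians, and the grey bar runs from the first to the third quartile of all tested genes. The median is 0.77 for the IkB proteins and A20, 1.13 for known target genes and 0.03 for all tested genes.

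Over the 6 samples, the genes whose centred log2 CPM profile lay closest to that of Nfkbia were Brf1, a subunit of an RNA polymerase III factor, Plcb3, a phospholipase C, and Atf4, a transcription factor of the integrated stress response. Their Euclidean distances were 0.066, 0.068 and 0.072 log2 units, among 9945 genes with a median distance of 1.65. Closest to Rel were Set, a histone chaperone, Egln1, a prolyl hydroxylase of the oxygen response, and Vsig10, at distances of 0.053, 0.054 and 0.061. Within 0.2 of Nfkbia lay 168 genes and within 0.2 of Rel 215. With only 2 groups, this measure mostly ranks genes by the size of the group difference.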

How the data were processed

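RNA from 6 samples was analysed, 3 each of CAR-Trem2-Ms and CAR-Ms. The authors deposited 1 table of 22063 genes. Its columns, per the file headers, are read counts, TPM (which the authors scaled per length within each library), group means, a log2 fold change and p-values; the deposited log2 fold change equals the log2 ratio of the mean TPM, and no header names the tool behind the p-value. The build mm10 and the tools StringTie 1.3.1, HISAT2, Bowtie2 2.2.8 and fastp 0.18.0 are listed, without roles, per the submitters' processing notes. The counting tool and annotation are not stated. Coordinates are from GENCODE M21 (GRCm38, the build of mm10).

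Counts were tested across all genes with edgeR 4.0.16 in R 4.3.3 (quasi-likelihood test, TMM factors, filterByExpr, 11402 genes), with p-values adjusted by Benjamini-Hochberg over all tested genes and a call at an adjusted p under 0.05. The test was tried on simulated data in which few genes changed, in balanced directions. It therefore cannot check the scaling in these data, where most genes changed. Standard errors were derived from each F statistic and fold change. Each replicate counted as 1 sample. Replicate pairs differed by more than sampling noise (chi-square per degree of freedom 2.19 to 3.34), which does not show whether they are separate cultures, since that spread may be technical. Members, lists and tests were chosen with earlier results of these data known. From each pathway list the text names up to 4 changed genes, those of largest fold change whose higher group averages 50 reads or more. Alternatives were other factors and filters, DESeq2 1.42.0, limma 3.58.1 (voom, and trend on log2(TPM + 1) over genes with at least 1 TPM in 3 samples), a replicate block, leaving out each sample, stricter thresholds, and, added after seeing the data, loess offsets for GC content and length (values for 21973 genes).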

Additional observations from a re-analysis of the deposited data

How the results depend on the processing

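Nfkbia, Tnfaip3, Rel and Nfkb2 kept their direction and an adjusted p under 0.05 under all 19 alternatives, with log2 fold changes of 0.57 to 1.51, 0.53 to 1.65, -1.99 to -0.74 and -1.19 to -0.32. On log2(TPM + 1) and log2(TPM + 0.1), Nfkb1 turned to -0.24 and -0.24, Rela to -0.40 and -0.41 and Nfkbiz to -0.55 and -0.58; 2 of the 10 genes rose and 6 fell on either scale, where all genes split into 1890 higher and 6946 lower, and 1881 and 6927. Total-count scaling put Nfkbiz at -0.02. After the GC content and length correction Rela stood at -0.35, also with the block added, and 4 genes fell in both fits; the cause was not tested. At a log2 fold change of at least 1, 3 of the 10 genes changed, 2 higher and 1 lower, and 3765 of all genes, 2136 higher and 1629 lower. The canonical to noncanonical ratio turned to -0.32 with averaged log2 values and to -0.18 without Nfkb1. Leaving out each sample in turn gave 6 higher and 2 lower of the 10 genes each time. Over all genes these fits gave 4497 to 4662 higher and 4414 to 4575 lower, so the steady count is not particular to the 10 genes. The replicate numbers do not pair the samples (correlations of same-numbered deviations -0.006, -0.027 and 0.057); with the replicate block 8 of the 10 genes and 9188 of all genes changed, and the inhibitor to subunit difference was 0.89 (exact sign-flip p = 0.25, the smallest that 3 pairs allow). The 20 pathway genes named for the largest changes in their lists kept direction and call under the alternatives run, though not their size. Their choice by size made this likely, so it says little about the lists. Chuk, Ikbkb, Ikbkg, Cd83, Cflar and Birc3 are not among these 20. Depth limits Nfkbie most: it had as few as 95 reads in a sample and the widest standard error, 0.15.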

Other observations

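The authors' deposited table pairs its own columns in a way that a reader of these genes would want to look at again. In the authors' deposited table Nfkbib has a log2 fold change of 0.05 with an adjusted p of 8.2e-31, and Relb 0.05 with 1.5e-10. The authors' deposited table gives Nfkbiz a log2 fold change of -0.58 with an adjusted p of 0.40, and Nfkbie -0.92 with 0.16. Nfkb1, at -0.24 in the authors' deposited table, rose in the count test. Among the 11402 tested genes, the authors' deposited table has 9023 with an adjusted p under 0.05, of which 556 have an absolute log2 fold change under 0.1. Another 1781 have an absolute log2 fold change of at least 0.5 and an adjusted p of at least 0.05. The sign of the deposited fold change differed from that of the count-based fold change in 2868 genes (25.2%).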
